A study of Mus musculus with 2 samples.

Results

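Non-classical monocytes are the patrolling monocytes of the blood, here 527 cells of the old library and 463 cells of the young library, 990 of 26438 filtered cell barcodes in all. Cells were chosen by their own transcripts: at least 5 UMIs in sum from Ace, Treml4, Cd300e, Adgre4 and Pparg, at least 1 UMI of Csf1r, at most 5 UMIs in sum from Vcan, F13a1 and Fn1, and at most 1 UMI in sum from Flt3 and Cd209a. A UMI is 1 counted RNA molecule. Barcodes were filtered to those with 200 genes or more and no more than 20% of UMIs from mitochondrial genes. Because these values chose the cells, they are given as a description, and so is every difference between these cells and other cells.

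Non-classical monocytes carry the fractalkine receptor Cx3cr1, little Ly6C and little Ccr2, and crawl along the inside of blood vessels. In mice most of them arise from classical Ly6C-high monocytes, and the nuclear receptor Nr4a1 is needed for their formation and survival. They are known for clearing debris from vessel walls and for responding to viral nucleic acids, and they depend on the growth factor receptor Csf1r.

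The study sorted live blood leukocytes positive for CD45, CD11b and Ly6G after lysis of red cells and, per the labels, captured them with BD Rhapsody, a microwell system that tags each RNA molecule with a cell barcode and a UMI. The barcodes have 16 bases and the file headers name Cell Ranger, the software of another platform, so the platform is not certain. The old library came from mice aged 24 months and the young library from mice aged 2 months, both labelled male, with 1 library per age. The labels name no strain, and neither the number of animals in each library nor any pooling is stated. With 1 library per age there is no replicate, so no test was possible. Intervals are 95% exact intervals that cover counting error only, and age cannot be told apart from any other difference between the libraries. Ly6G is a surface protein of neutrophils, and its transcript in the chosen cells is given with the neutrophil genes below.

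Non-classical monocytes made up 3.90% of the filtered barcodes of the old library (527 of 13517, Clopper-Pearson interval 3.58 to 4.24) and 3.58% of the young library (463 of 12921, 3.27 to 3.92). These intervals overlapped. Both shares are of cells sorted as positive for CD45, CD11b and Ly6G, so they are not frequencies in blood. Whether the abundance of these cells in blood differed with age was not tested. The cells were similarly deep in both libraries, with a median of 9905 UMIs and 3277 genes per cell in old and 9932 UMIs and 3279 genes in young. The libraries as a whole held 128826996 UMIs in old and 69599479 in young, and 53 barcode sequences occurred in both. Of the members, 5 had a barcode also found in the other library, and 1 barcode was a member in both.

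Among cells chosen by the sum of the 5 marker genes, most held UMIs of several of them. The sum chose the cells, so this is a description only. All 5 had a UMI in 56.4% of old and 56.2% of young members, and 4 of them in 27.3% and 31.1%. Only 4 old and 3 young members rested on 1 of the 5 genes. The median marker sum was 23 UMIs per old and 28 per young cell. Nr4a1, which the rule did not use, had a UMI in 90.7% of old and 93.7% of young members at 323 CPM and 455 CPM (CPM, UMIs of a gene per 1000000 UMIs of the summed cells). In neutrophils it reached 7.81 CPM in old and 28.7 CPM in young.

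The cells just inside the marker threshold were few. A marker sum of 5 or 6 was seen in 16 old and 7 young members, which held Cx3cr1 at 136 CPM and 300.3 CPM. Barcodes just outside it, with a sum of 3 or 4 and otherwise passing, numbered 59 in old and 66 in young, with Cx3cr1 at 40.7 CPM and 36.7 CPM. Those outside also held more of the neutrophil receptor gene Csf3r, at 1504 CPM in old and 4785 CPM in young, against 574 CPM and 2241 CPM just inside. The limit on classical monocyte genes alone kept out 246 old and 82 young barcodes. In these the chemokine receptor gene Ccr2 stood at 831 CPM in old and 642 CPM in young, and Cx3cr1 at 173 CPM and 286 CPM. Both genes thus lay between the members and the classical monocytes of the same library. In members Ccr2 stood at 113 CPM in old and 108 CPM in young, and in classical monocytes at 1077 CPM and 919 CPM. The limit on Csf1r alone kept out 20 old and 11 young barcodes, the limit on Flt3 and Cd209a 6 and 5, and more than 1 limit 37 and 10.

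**Figure D1:**
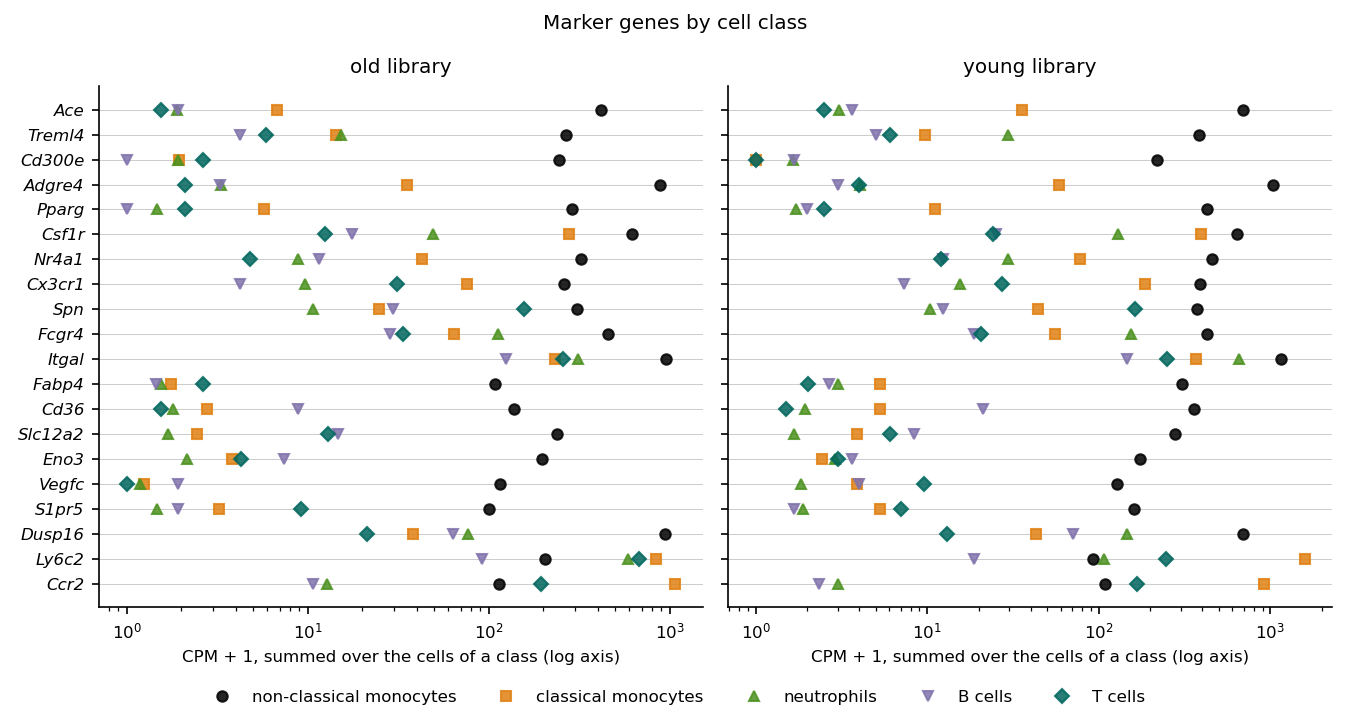
CPM plus 1 of 20 genes, on a log axis, summed over the cells of 5 classes in the old (left) and young (right) libraries; each point is 1 class. The black points of the non-classical monocytes lie furthest right for every gene except the classical monocyte genes Ly6c2 and Ccr2 in the bottom rows.

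Beyond the rule, a set of 20 genes was higher in non-classical monocytes than in the other classes compared. These classes were neutrophils, B cells, T cells and dendritic cells of both libraries, and classical monocytes of the old library, each gated by its own genes. The 20 genes are those with the largest smallest ratio over these classes, which ran from 4.15 to 17.0 with 5 CPM added. Fabp4, a fatty acid carrier, led with 108 CPM in old members and 305 CPM in young members, against 0.764 CPM in old classical monocytes. Dnah12, a dynein heavy chain, had 88.9 CPM in old and 227 CPM in young members. Next came Slc12a2, a sodium, potassium and chloride cotransporter, at 236 CPM in old and 277 CPM in young. All 3 were at or below 15.7 CPM in every other class, the young classical monocytes included.

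The set also held the lymph and vessel growth factor gene Vegfc, with 114 CPM in old and 127 CPM in young members, and the vascular growth factor receptor gene Flt1, with 65.4 CPM and 133 CPM. The 49 young classical monocytes, left out of the comparison, had Flt1 at 34.7 CPM, and the 19 young dendritic cells, which were in it, are few as well. S1pr5, a receptor for sphingosine 1-phosphate, had 99.1 CPM in old and 158 CPM in young members. The muscle-type enolase gene Eno3 had 196 CPM in old and 174 CPM in young, and the scavenger receptor gene Cd36 had 138 CPM and 357 CPM. The other genes of the set were Lilra5, Ccdc192, Bcl2a1a, Tcf7l2, Cyp2ab1, Ear2, Cyth3, Smpdl3b, Dusp16, Nr4a1, Hes1 and Agmo. Among them the phosphatase gene Dusp16 was the most abundant, with 946 CPM in old and 694 CPM in young. Lilra5, Ear2 and Bcl2a1a belong to families of near-identical genes, so reads may be split among copies and their levels are uncertain.

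Set against the 810 classical monocytes of the old library, the genes furthest below in old members were Saa3, Prtn3, Elane, Mt1, Ccr2, Lgals1, S100a10, Cd93, Gas7 and Ms4a8a. Saa3, an acute phase gene, had 23.7 CPM in old members and 787 CPM in old classical monocytes. The galectin gene Lgals1 had 56.8 CPM in old members and 464 CPM in old classical monocytes. Prtn3 and Elane encode granule proteases of myeloid precursors, and had 18.9 CPM and 1.89 CPM in old members against 284 CPM and 67.4 CPM in old classical monocytes. The young library held only 49 classical monocytes, so it was not used for this ranking.

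About 1 in 3 members carried neutrophil transcripts well above the rest. S100a8 and S100a9, which encode the calprotectin subunits that neutrophils make in great amount, took a median of 0.845% of a member's UMIs in old and 0.202% in young, but up to 36.4% and 20.5%. Over 5% was seen in 132 old members (25%) and 24 young members (5.18%). The shares formed a peak at low values and a smaller, wider peak at higher values in both libraries. Members with a share of at most 2 times their library's median are called low-S100 members, a limit set after the data were seen. They numbered 358 of 527 in old (limit 1.69%) and 316 of 463 in young (limit 0.404%).

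**Figure D2:**
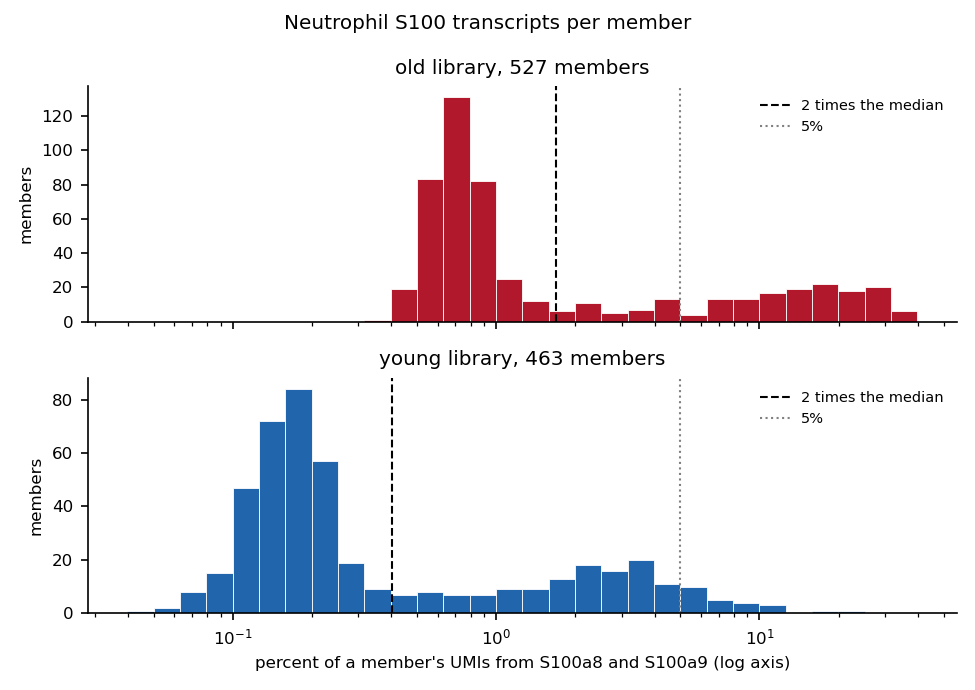
Number of non-classical monocytes by the percent of their UMIs from S100a8 and S100a9 (log axis), old library above and young below; the dashed line is 2 times the median and the dotted line 5%. In both libraries most cells form 1 low peak left of the dashed line, and 132 old and 24 young cells lie right of the dotted line.

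Members above the limit were also deeper, with a median of 16020 UMIs in old and 13025 in young, against 8010 and 8853 in low-S100 members. The summed level of 13 neutrophil markers was 100712 CPM in all old members and 17127 CPM in all young members, and 9211 CPM and 2392 CPM in low-S100 members. Neutrophils themselves held 336820 CPM in old and 123935 CPM in young. In low-S100 members S100a8 had a median of 29 UMIs per cell in old and 6 in young, close to the 28.5 and 5 of B cells and the 30 and 7 of T cells. Counts for the gene lists and the main old-over-young results are therefore given over all members and over the low-S100 members, and the part of neutrophil RNA in results over all members was not tested further.

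Summed markers of most other cell types were low, but those of erythroid cells were not. The summed B cell markers stood at 36.5 CPM in old and 56.6 CPM in young members, against 6514 CPM and 9256 CPM in B cells. T cell markers summed to 33.5 CPM in old and 38.0 CPM in young members, and platelet markers to 182 CPM and 114 CPM. Haemoglobin and other erythroid markers summed to 5933 CPM in old and 10307 CPM in young members, against 10268 CPM and 10059 CPM in B cells. NK cell markers summed to 1.89 CPM in old, with 3 of 6 at 0 UMIs, and to 63.6 CPM in young, mostly Gzma and Klra8. Macrophage markers summed to 178 CPM in old and 241 CPM in young, markers of eosinophils, basophils and mast cells to 5.53 CPM and 6.59 CPM, and cell cycle genes to 69.9 CPM and 23.3 CPM. In low-S100 members the cell cycle genes stood at 25.4 CPM in old and 29.4 CPM in young. Dendritic cell markers, which include the MHC class II genes described below, summed to 367 CPM and 701 CPM, while Flt3 was limited by the rule.

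Among themselves the cells varied most in haemoglobin, S100, MHC class II and a few myeloid genes. With every cell thinned to 2000 UMIs, the ratio of variance to mean over cells had a median of 1.13 over 1766 genes in the old library. After Hbb-bs, Hba-a1, Hba-a2 and Hbb-bt, the genes of highest ratio in low-S100 members were Cd74, the invariant chain of MHC class II, Malat1, H2-Aa, Lyz2, Apoe, H2-Ab1, Chil3, Plac8, Crip1, Tmsb4x and Actb. Cd74 reached a ratio of 10.4 in both libraries. Apoe, the lipid carrier, reached 6.16 in old and 5.32 in young.

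MHC class II transcripts were concentrated in a minority of cells. Of the low-S100 members thinned to 2000 UMIs, 32 of 358 in old (8.94%) and 55 of 315 in young (17.5%) held at least 5 UMIs in sum from H2-Aa, H2-Ab1, H2-Eb1 and Cd74. No UMI of these genes was found in 69.3% of old and 48.6% of young cells. The cells with 5 or more had H2-Aa at 1922 CPM in old and 1245 CPM in young, the B cell gene Cd79a at 0 UMIs in both, and Ace at 625 CPM and 918 CPM. Their Ccr2 stood at 547 CPM in old and 273 CPM in young, against 92.0 CPM and 94.2 CPM in the other low-S100 cells. Ace in those other cells stood at 577 CPM in old and 756 CPM in young. Other non-classical genes were lower in the old cells with 5 or more. Nr4a1 had 250 CPM (16 UMIs) against 474 CPM, Cx3cr1 266 CPM (17 UMIs) against 380 CPM, and Adgre4 906 CPM against 1227 CPM. In young, Nr4a1 had 445 CPM against 538 CPM, Cx3cr1 427 CPM against 406 CPM, and Adgre4 1127 CPM against 1104 CPM. The cut at 5 UMIs was chosen after the values were seen.

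For old over young, the CPM of each library plus 1 were divided, and the log2 of that ratio was centred by subtracting the value of the median gene among those averaging 50 CPM or above, so that positive values are higher in old. The median gene itself lay at -0.19 over all members and at -0.03 over low-S100 members. A gene counted as higher or lower where it was beyond 1.5-fold. Of 6068 genes at 20 CPM or more, 319 (5.26%) were higher and 182 (3.0%) lower in old members. Without centring, 203 (3.35%) were higher and 428 (7.05%) lower. Of the 319 higher genes, 219 had more CPM in neutrophils than in members and 136 were also higher in low-S100 members. Of the 182 lower genes, 51 had more CPM in neutrophils and 129 were also lower in low-S100 members. Among low-S100 members 219 of 6229 genes were higher (3.52%) and 221 lower (3.55%).

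The 15 genes named as higher over all members were led by Ltf, Camp, Ngp and Ly6g. Ltf, which encodes lactoferrin, had 1227 CPM in old (95% Poisson interval 1200 to 1254) and 4.27 CPM in young (2.67 to 6.46). Camp, the cathelicidin gene, had 2677 CPM in old and 21.9 CPM in young, and Ngp 3889 CPM and 56.4 CPM. Ly6g had 270 CPM in old and 13.4 CPM in young, with 999 CPM and 99.4 CPM in neutrophils. In low-S100 members these genes stood at 91.0 CPM, 132 CPM, 235 CPM and 51.7 CPM in old, against 1.92 CPM, 5.43 CPM, 6.38 CPM and 3.19 CPM in young. In old low-S100 members and in old B cells alike, the median cell held 1 UMI of Ltf, 1 of Camp, 2 of Ngp and 0 of Ly6g. The other genes of the 15 named were Abca13, Serpinb1a, Lcn2, Cd177, Wfdc21, Adpgk, Upp1, Chil3, Wfdc17, S100a8 and Syne1. All 15 but Serpinb1a were beyond 1.5-fold higher in low-S100 members too.

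Once genes below 0.25 of their neutrophil level were left out, Ltf, Camp, Ngp and Ly6g among them, the gene furthest above in old low-S100 members was Pecam1 (chr11:106654217-106750628), which encodes the adhesion molecule CD31. It had 385 CPM in old (364 to 407) and 63.8 CPM in young (55.3 to 73.3), a 6.04-fold ratio with a centred log2 ratio of 2.60. Over all members it had 277 CPM in old and 57.4 CPM in young (centred log2 ratio 2.44). With 2000 UMIs per cell, Pecam1 was seen in 44.4% of 358 old (39.2 to 49.7) and 10.2% of 315 young low-S100 members (7.05 to 14.0). In neutrophils, which hold far less, it had 12.6 CPM in old and 14.5 CPM in young. In B cells it had 288 CPM in old and 463 CPM in young, and in T cells 84.7 CPM and 177 CPM, so its level was lower in old in both lymphocyte classes. Without thinning, 64.7% of all old and 33.0% of all young members had a Pecam1 UMI.

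A second adhesion gene, F11r, which encodes the junctional adhesion molecule JAM-A, had 65.0 CPM in old and 13.4 CPM in young low-S100 members. The tetraspanin gene Cd81 had 56.6 CPM in old and 15 CPM in young. Adgrl3, a latrophilin, had 246 CPM in old and 71.8 CPM in young low-S100 members and at most 26.0 CPM in neutrophils, classical monocytes, B cells and T cells, while dendritic cells held 46.7 CPM in old and 288 CPM in young. These genes of the cell surface were higher in old in both sets of members. Of the transcription factor genes, Nfil3 had 81.7 CPM in old and 23 CPM in young low-S100 members, and Ets1 158 CPM and 55.2 CPM. Further genes of this set of 20 were Chil3, Airn, Shtn1, Ide, Sipa1l1, Fmn1, Dpep2, Grap2, Clec4e, Arhgap18, Fpr2 and Hivep2. Airn overlaps Igf2r on the opposite strand and the strand setting of the counts is not given, so its level is uncertain. The set was chosen after the values of low-S100 members were seen.

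Hpgd, which was not among the 20 genes above the other classes compared, and some of those 20 were lower in old. Hpgd (chr8:56294585-56321043), the enzyme that inactivates prostaglandins, had 90.8 CPM in old (83.5 to 98.5) and 512 CPM in young (493 to 532), a centred log2 ratio of -2.30. Low-S100 members had 136 CPM in old and 595 CPM in young. Classical monocytes also had less Hpgd in old, 23.9 CPM against 172 CPM in the 49 young cells. With 2000 UMIs per cell, 19.0% of old and 56.8% of young low-S100 members had an Hpgd UMI, against 0% and 0.248% of B cells. Over all members without thinning the shares were 30.9% in old and 75.4% in young.

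Fabp4 (chr3:10204088-10208576) and Cd36 (chr5:17781690-17888801) act in fatty acid handling and are textbook targets of the nuclear receptor Pparg, itself 1 of the 5 rule genes. Fabp4 had 108 CPM in old (99.7 to 116) and 305 CPM in young (290 to 321), with a centred log2 ratio of -1.31 and of -1.25 in low-S100 members. Cd36 had 138 CPM in old (129 to 147) and 357 CPM in young (341 to 373), with -1.18 and -1.13. Pparg had 286 CPM in old and 427 CPM in young, a centred log2 ratio of -0.39, which is within 1.5-fold. Dnah12 stood at -1.15 over all members and -1.02 in low-S100 members. Of the 20 genes above the other classes compared, 5 (Fabp4, Dnah12, Cd36, Ccdc192 and Flt1) were lower beyond 1.5-fold over all members and 2 higher, beside 3.0% lower and 5.26% higher of all 6068 genes. Of these 2, Smpdl3b, a sphingomyelinase-like gene, had a centred log2 ratio of 0.60, and Dusp16 of 0.63.

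The other lower genes of the 15 named over all members were Dmd, Sugct, a, Serpinb2, Ly6i, Slfn5, Fam214a, Lpar6, Ifi27l2a, Hdac9 and Inpp4b. Ly6i, of the Ly6 family, had 38.4 CPM in old and 132 CPM in young, and its reads may be shared with near-identical family members. Serpinb2, an inhibitor of plasminogen activators, had 18.8 CPM in old and 66.5 CPM in young. Lpar6, a receptor for lysophosphatidic acid, had 20.7 CPM in old and 61.1 CPM in young. Btla, an inhibitory receptor that was named in low-S100 members only, had 10.5 CPM there in old and 55.9 CPM in young. All 15 genes except Sugct, which the low-S100 rule left out as more abundant in neutrophils, and Hdac9, Cd36 and Dnah12 were again among the 20 lowest in low-S100 members, and all 15 were lower there beyond 1.5-fold.

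Dmd (chrX:82948870-85206141), the dystrophin gene, and Sugct (chr13:16857472-17695553) differed across the whole library. Dmd had 1.11 CPM in old and 268 CPM in young members, 11.5 CPM and 191 CPM in B cells, and 1.64 CPM and 168 CPM in T cells. Sugct had 3.79 CPM in old and 292 CPM in young members, and 4.16 CPM and 876 CPM in neutrophils. The nonagouti gene a had 8.68 CPM in old and 57.4 CPM in young members, and 4.22 CPM and 35.1 CPM in neutrophils. Xist, which coats the silenced X chromosome of female cells, had 537 CPM in old and 486 CPM in young members, although both libraries are labelled male, and of 4 Y-linked genes Ddx3y had 6.79 CPM (43 UMIs) and 16.1 CPM (83 UMIs), Uty 0 and 2 UMIs, and Eif2s3y and Kdm5d 0 UMIs in both. These differences are of the libraries and not of the non-classical monocytes alone.

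**Figure D3:**
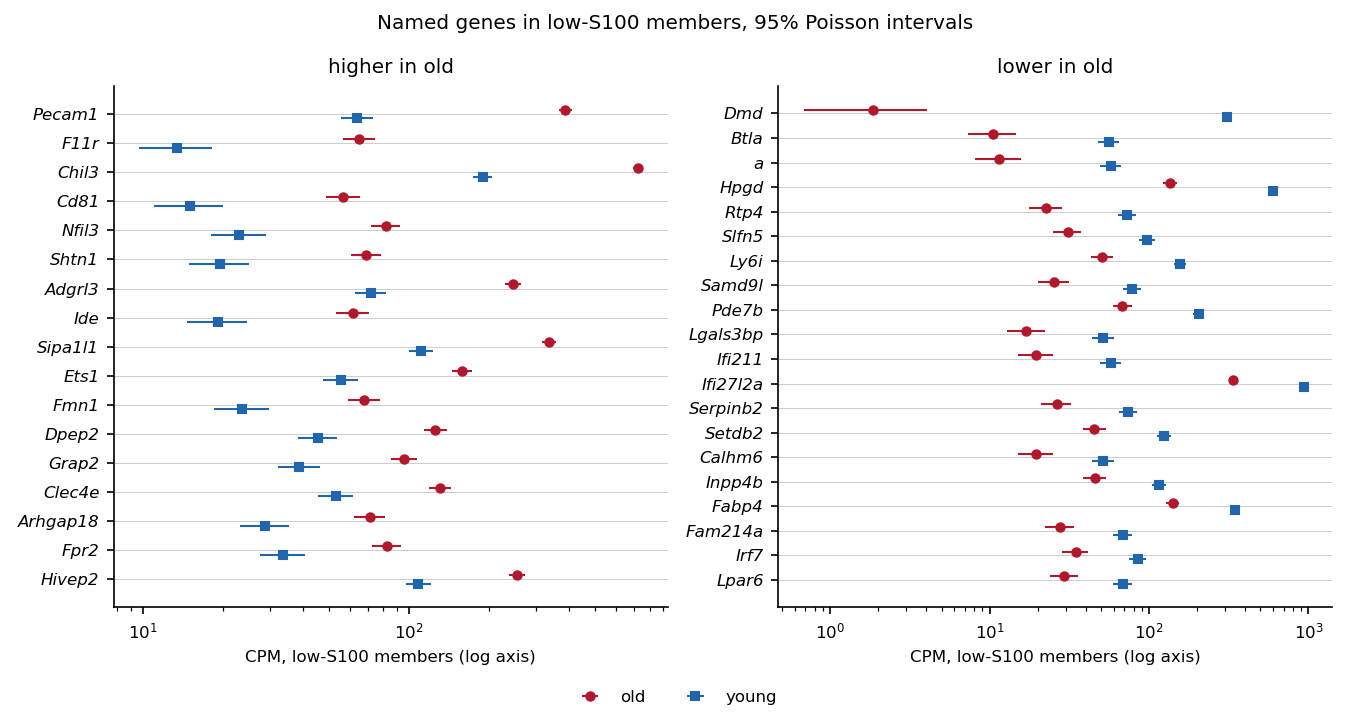
CPM in low-S100 members on a log axis for 17 of the 20 named genes higher in old (left) and the 20 lower in old (right), chosen after genes below 0.25 of their neutrophil level were left out; red circles are old, blue squares young, and bars 95% Poisson intervals of counting error. The intervals of old and young are apart for every gene drawn, with Pecam1 at 385 and 63.8 CPM and Hpgd at 136 and 595 CPM.

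Interferon-stimulated genes were lower in old non-classical monocytes. Of 25 such genes measured at 5 CPM or more, 18 were lower and 0 higher, with a median centred log2 ratio of -0.74. Among all 9350 genes at that level 4.62% were lower and 6.65% higher. In low-S100 members 22 of 25 were lower and 0 higher, with a median of -1.17, against 6.12% lower and 5.66% higher of the 9350 genes. Isg20, Zbp1 and Igtp were the 3 within 1.5-fold there. Neutrophils of the same libraries had a median of -0.73 over these genes, so the lower level was not seen in non-classical monocytes alone.

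The list holds genes of antiviral effectors. The lowest of its genes in low-S100 members was Rsad2, followed by Ifit3, Oasl2, Oasl1, Oas2 and Oas3. Rsad2, which encodes viperin, had 2.47 CPM in old (8 UMIs, 1.07 to 4.88) and 33.5 CPM in young (27.4 to 40.6), a centred log2 ratio of -3.29. Over all members it had 18.8 CPM in old and 44.8 CPM in young, with 42.1 CPM and 175 CPM in neutrophils. Ifit3, which binds viral RNA complexes, had 2.17 CPM in old and 18.5 CPM in young low-S100 members. Oasl2 had 26.6 CPM in old and 98.0 CPM in young, and Oas3, a synthetase of the RNA decay signal 2-5A, 14.8 CPM and 48.8 CPM. Oasl1 had 1.24 CPM in old and 7.02 CPM in young, and Oas2 8.35 CPM and 31.3 CPM. Each of these 6 was lower in old over all members too.

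A regulator of the response was lower as well. Irf7, the transcription factor that drives interferon alpha genes, had 34.6 CPM in old and 85.2 CPM in young low-S100 members. The most abundant gene of the list was Ifi27l2a, with 336 CPM in old and 942 CPM in young low-S100 members, 171 CPM and 490 CPM in B cells, and 643 CPM and 1976 CPM in classical monocytes. Slfn5 had 30.9 CPM in old and 97.4 CPM in young. The Oas, Slfn and Ifi20 families have near-identical members, and their single-gene values are uncertain.

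The promoters of these genes are shown as a description of the list. The interferon response element was searched as GAAANNGAAA on both strands in RefSeq windows of 300 bases, from 250 before to 50 after each gene start, and overlapping matches were allowed. It was found in 14 of 21 windows (66.7%) of the 18 of 25 listed genes that matched the table, and in 1131 of all 32851 windows (3.44%). The list was made of genes known to respond to interferon. These shares therefore say nothing on the difference between the old and young libraries. The 13 genes with a match were Bst2, Gbp2, Ifit1, Ifit3, Igtp, Irgm1, Isg15, Oas1a, Oas3, Rsad2, Slfn5, Slfn8 and Stat2. Of these, Igtp was within 1.5-fold in low-S100 members, at -0.08. The windows of 3 genes named above follow, each written 5′ to 3′ in the direction of the gene, with the matches in capitals; on the other strand the motif reads TTTCNNTTTC.
Rsad2 promoter window (GRCm38.p6 chr12:26456403-26456702, minus strand): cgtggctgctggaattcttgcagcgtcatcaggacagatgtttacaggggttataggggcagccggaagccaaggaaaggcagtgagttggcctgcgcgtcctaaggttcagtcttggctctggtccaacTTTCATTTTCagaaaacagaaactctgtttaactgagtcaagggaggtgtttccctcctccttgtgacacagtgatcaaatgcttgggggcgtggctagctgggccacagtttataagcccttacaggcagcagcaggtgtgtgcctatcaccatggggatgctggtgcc
Ifit3 promoter window (GRCm38.p6 chr19:34583279-34583578, plus strand): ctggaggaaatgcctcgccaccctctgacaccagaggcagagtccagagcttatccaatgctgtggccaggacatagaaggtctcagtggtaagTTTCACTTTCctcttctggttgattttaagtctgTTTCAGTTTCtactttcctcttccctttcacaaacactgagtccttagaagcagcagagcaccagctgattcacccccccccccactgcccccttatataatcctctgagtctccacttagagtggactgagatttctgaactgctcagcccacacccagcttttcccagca
Oas3 promoter window (GRCm38.p6 chr5:120777610-120777909, minus strand): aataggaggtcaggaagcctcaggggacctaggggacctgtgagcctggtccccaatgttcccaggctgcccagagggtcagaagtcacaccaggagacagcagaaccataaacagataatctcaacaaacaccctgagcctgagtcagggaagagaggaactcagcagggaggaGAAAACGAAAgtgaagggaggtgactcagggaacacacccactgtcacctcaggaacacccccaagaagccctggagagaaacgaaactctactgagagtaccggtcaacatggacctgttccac
Rsad2 had 1 match, 120 bases before the start, Ifit3 had 2 and Oas3 had 1. A match describes these letters only and does not show that a factor binds there. The Nr4a1 element AAAGGTCA was searched in the same way in the 20 genes high in these cells, and was found in 0 of 17 windows of the 16 genes that matched, and in 495 of all 32851 (1.51%).

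**Figure D4:**
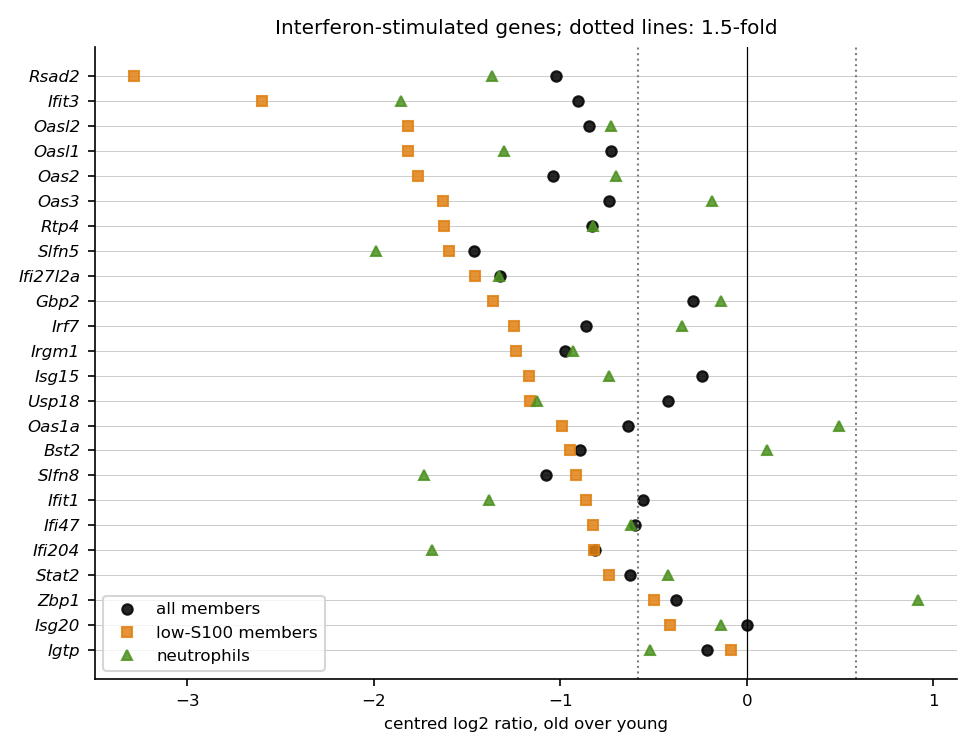
Centred log2 ratio of old over young for 24 of the 25 measured interferon-stimulated genes in all members (black circles), low-S100 members (orange squares) and neutrophils (green triangles); dotted lines mark 1.5-fold. The orange squares lie left of the lower line for 21 of them, with Rsad2 at -3.29 the lowest.

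List counts here and below stand beside the shares over all 9350 genes at 5 CPM or more. Over all members 6.65% of those genes were higher and 4.62% lower, and in low-S100 members 5.66% and 6.12%. Of 24 genes of the non-classical signature outside the rule, 2 (Fabp4 and Cd36) were lower and 0 higher, with a median of -0.09. In low-S100 members the same 2 were lower and 1 was higher, with a median of 0.00. Cx3cr1 had 261 CPM in old and 387 CPM in young (centred log2 ratio -0.38, and -0.33 in low-S100 members). Nr4a1 had 323 CPM in old and 455 CPM in young (-0.30). Fcgr4, the activating Fc receptor of these cells, had 456 CPM in old and 427 CPM in young, and the integrin gene Itgal 957 CPM and 1159 CPM. Spn, which encodes CD43, had 307 CPM in old and 371 CPM in young. Of the rule genes, Ace had 415 CPM in old and 687 CPM in young, Treml4 268 CPM and 382 CPM, Cd300e 244 CPM and 219 CPM, Adgre4 883 CPM and 1030 CPM, and Csf1r 621 CPM and 640 CPM. The centred ratios of these 5 lay between -0.54 and 0.34.

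Of 26 monocyte transcription factors, 2 were higher and 3 lower over all members, with a median of -0.12, and likewise 2 and 3 in low-S100 members. Mef2c had 285 CPM in old and 504 CPM in young (-0.63), and was lower to a like degree in low-S100 members, at -0.63. Id2, an inhibitor of E proteins, had 125 CPM in old and 78.2 CPM in young (0.86, and 1.01 in low-S100 members). Egr1 was lower at -2.46, but its level in members was 2.84 CPM in old and 23.1 CPM in young beside 74.0 CPM in young neutrophils. Of 19 survival genes, 1 was higher and 1 lower, and in low-S100 members 0 and 1. Bcl2, which prolongs cell survival, had 344 CPM in old and 499 CPM in young (-0.35). Of 20 immediate early genes 1 was higher and 1 lower, and in low-S100 members 4 were higher and 1 lower.

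Most genes of the classical monocyte signature were higher in old over all members, but fewer were in low-S100 members. Over all members 10 of 16 were higher and 1 lower, with a median of 0.75. In low-S100 members 6 were higher and 2 lower, with a median of 0.35, which is within 1.5-fold. Neutrophils of the same libraries had a median of 1.78 over these genes, with 13 higher and 1 lower. Chil3, a chitinase-like protein of classical monocytes, had 722 CPM in old (693 to 752) and 189 CPM in young (174 to 205) low-S100 members. Gda had 926 CPM in old and 430 CPM in young, and the acute phase gene Hp 520 CPM and 238 CPM. Cd14, the co-receptor for endotoxin, had 39.6 CPM in old and 13.4 CPM in young. In neutrophils the centred log2 ratio was 0.90 for Hp, 1.85 for Cd14 and 0.04 for Gda. B cells, which do not make Chil3, held it at 158 CPM in old and 4.33 CPM in young. The direction was not shared by all: Ms4a4c had 77.7 CPM in old and 160 CPM in young low-S100 members, and Ly6c2 had 67.8 CPM and 117 CPM. Ly6c2 turned its direction between the sets, since over all members it had 204 CPM in old and 91.3 CPM in young. Neutrophils had Ly6c2 at 589 CPM in old and 106 CPM in young.

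MHC class II genes were lower over all members, 4 of 8 beyond 1.5-fold and 0 higher, with a median of -0.49. Cd74 had 525 CPM in old and 1133 CPM in young, and H2-Aa 156 CPM and 305 CPM. In low-S100 members Cd74 had 815 CPM in old and 1373 CPM in young and was the 1 gene of the list lower beyond 1.5-fold, while H2-Aa had 254 CPM and 359 CPM. Ciita, the transactivator of these genes, was the 1 gene higher there, with 13 CPM in old (9.36 to 17.6) and 7.98 CPM in young (5.16 to 11.8), intervals that overlapped. Of 15 MHC class I genes 3 were lower and 0 higher, with a median of -0.33, and in low-S100 members 4 were lower and 0 higher, with a median of -0.34. H2-K1 had 1102 CPM in old and 1619 CPM in young (-0.37), and H2-Q7 66.5 CPM and 127 CPM (-0.73), an uncertain value since the H2-Q genes are near-identical.

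Most receptors that sense the surroundings were within 1.5-fold, so single genes are given. Except for adhesion genes, the shares beyond 1.5-fold over all members still exceeded those over all genes, though each rests on a small number of genes. Over all 9350 genes 6.65% were higher and 4.62% lower, and in low-S100 members 5.66% and 6.12%. Of 11 trafficking receptors 2 were higher and 2 lower, and in low-S100 members 2 and 1. The formyl peptide receptor genes Fpr1 and Fpr2 were higher, with 41.5 CPM and 82.3 CPM in old against 13.7 CPM and 33.5 CPM in young low-S100 members, and neutrophils held 249 CPM and 295 CPM in old. Ptger4, a prostaglandin E2 receptor, had 18.8 CPM in old and 42.5 CPM in young over all members. Of 17 adhesion genes 1, Pecam1, was beyond 1.5-fold, and of 12 Fc receptor genes 1 was higher and 1 lower, with the same counts in low-S100 members. The inhibitory Fc receptor gene Fcgr2b had 80.4 CPM in old and 153 CPM in young (-0.74, and -0.78 in low-S100 members), and Trem2 26.5 CPM and 18.8 CPM (0.66, and 0.75). Of 15 toll-like receptors and adaptors 2 were higher and 1 lower, and in low-S100 members 2 and 0. Tlr7, the sensor of single-stranded RNA, had 118 CPM in old and 214 CPM in young (-0.66, and -0.57 in low-S100 members). Of 18 inhibitory and Cd300 receptors 3 were higher and 1 lower, and in low-S100 members 2 and 1. Siglece, an inhibitory lectin, had 47.0 CPM in old and 23 CPM in young low-S100 members.

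Of 9 complement genes 6 were higher and 0 lower over all members, with a median of 0.75. In low-S100 members 3 were higher and 1 lower, with a median of 0.36. Without members over 5% S100a8 and S100a9 the median of the same 9 genes was -0.06. C5ar1, the C5a receptor, had 118 CPM in old and 69.9 CPM in young low-S100 members. C1qb was low, at 15.5 CPM in old and 0.638 CPM (2 UMIs) in young. Of 15 cytokines and chemokines 4 were higher and 0 lower over all members, with 4 higher and 4 lower in low-S100 members. Il1b had 369 CPM in old and 206 CPM in young low-S100 members but 666 CPM and 623 CPM over all members, where neutrophils held 1600 CPM and 2911 CPM.

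Of 22 scavenger and lipid genes 3 were higher and 2 (Fabp4 and Cd36) lower, and in low-S100 members 2 were higher and 3 lower. The cholesterol exporter gene Abca1 had 44.5 CPM in old and 18.8 CPM in young low-S100 members, a centred log2 ratio of 1.23. Of 23 lysosome hydrolase genes 2 were higher, and 1 in low-S100 members. Of 12 iron and haem genes 1 was higher and 1 lower, and in low-S100 members 0 and 1. Of 18 senescence and p53 target genes 4 were higher, with 2 higher in low-S100 members. Cdkn2a, a senescence marker, was at 0.158 CPM in old (1 UMI) and 0 UMIs in young.

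Metabolic genes depended on which cells were summed. Of 19 glycolysis genes 10 were higher over all members, with a median of 0.59, but 0 were higher and 1 lower in low-S100 members, with a median of 0.23. Gapdh had 1108 CPM in old and 599 CPM in young over all members, and 794 CPM and 588 CPM in low-S100 members, with 2016 CPM and 802 CPM in neutrophils. Of 19 NADPH oxidase and antioxidant genes 8 were higher over all members and 2 in low-S100 members. Gpx4, which repairs lipid peroxides, had 216 CPM in old and 142 CPM in young low-S100 members. Of 21 nuclear genes of oxidative phosphorylation 0 were beyond 1.5-fold in either direction in either set of members.

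**Figure D5:**
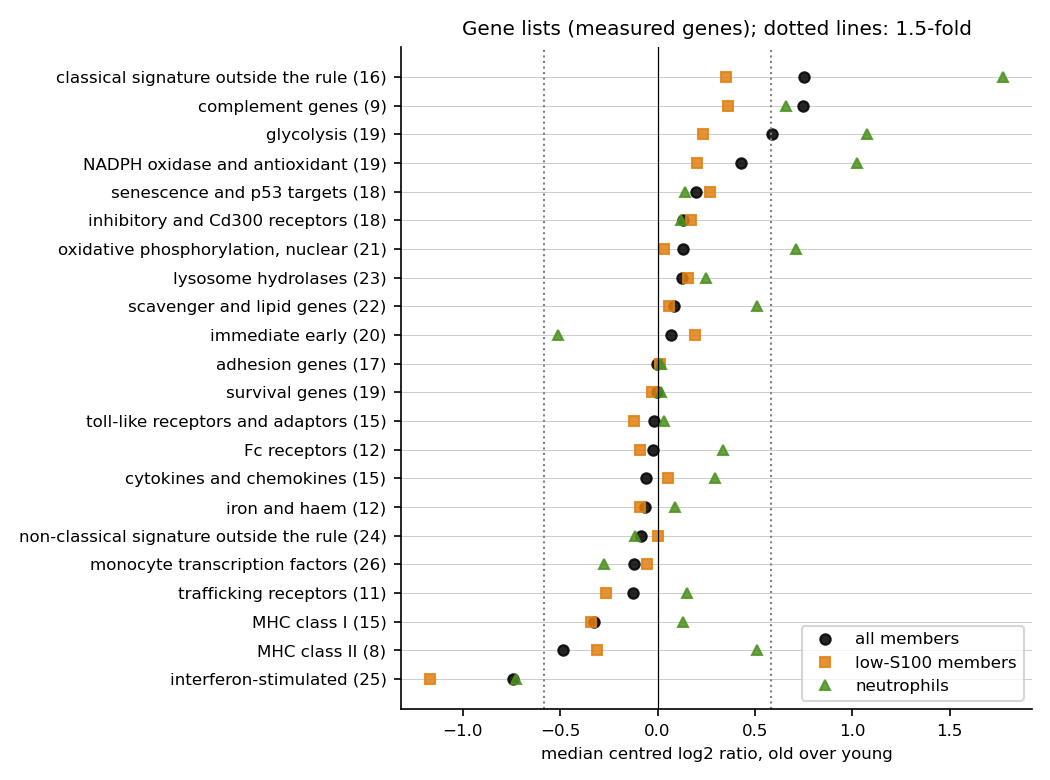
Median centred log2 ratio of old over young for 22 gene lists (number of measured genes in brackets) in all members (black circles), low-S100 members (orange squares) and neutrophils (green triangles), with dotted lines at 1.5-fold. The interferon-stimulated list lies lowest in members, at -0.74 over all members and -1.17 in low-S100 members, and 3 lists lie right of the upper line over all members but none in low-S100 members.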

How the data were processed

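The authors deposited raw UMI counts, 1 matrix a library. Cell Ranger 7.2.0 wrote them, per the file headers, and the submitters' processing notes list Cell Ranger and build mm10; the annotation release, strand setting and cell calling are not given in the sources used here. The files list 32285 genes, and barcodes of 16 bases hold at least 500 UMIs. The filter removed 817 old and 678 young barcodes. Depth and intervals stand with the results; reads of one molecule are merged by UMI, so intervals cover counting error only.

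Counts were summed over members, given as CPM with exact Poisson intervals, and compared as log2 ratios centred on the median gene, in Python 3.11.15 with numpy 2.4.6, scipy 1.17.1 and pandas 2.3.3. The steps recovered most set changes larger than 1.5-fold in simulated pooled counts whose only error was counting error. Differences between cells or libraries were not part of that simulation. Cells are not replicates, so no p-value is given. No doublet caller was run; members with high S100 shares were set apart instead. Genes named over all members are the 15 highest and 15 lowest ratios among genes reaching 50 CPM in a library, leaving out rule genes, Y-linked, unnamed, mitochondrial, ribosomal, haemoglobin and antigen receptor genes, and genes below 0.25 of their neutrophil level. The 20 per direction in low-S100 members followed the same exclusions. Others came from up to 4 genes per list, a fixed list, and genes picked after their values were seen. Some genes of these sets are not reported here. Members, lists and rules were chosen with earlier results of these data known. Positions are GENCODE GRCm38; promoters are RefSeq GRCm38.p6. The 2 classes gated for B and T cells were used as a gauge of free RNA. Alternatives changed the barcode filter, marker threshold, depth, scaling, pseudocount and floor.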

Additional observations from a re-analysis of the deposited data

How the results depend on the processing

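No paired analysis was possible because each age has 1 library. Settings other than the low-S100 limit were set with earlier results known, and the low-S100 limit after these data were seen. The share of members moved to 4.34% in old and 4.09% in young with a marker sum of at least 3. It moved to 2.82% and 3.02% with barcodes thinned to 3000 UMIs before the rule, and to 2.65% and 2.45% in low-S100 members. Without members over 5% S100a8 and S100a9 it was 2.92% in old, and in young it stayed within its interval of 3.27 to 3.92. Genes higher and lower in old, 319 and 182 in the report, became 182 and 284 without members over 5% S100, 203 and 428 with the plain ratio, 179 and 99 with a floor of 50 CPM and 1721 and 1042 with no floor; members thinned to 2000 UMIs gave 361 lower. Of the 22 lists, 3 had a median beyond 1.5-fold higher and 1 lower. The higher lists numbered 0 with thinning before the rule, without members over 5% S100, in low-S100 members, with the plain ratio and with members thinned to 2000 UMIs, and 1 with equal weight per cell. The lower lists numbered 2 with a marker sum of at least 8, without members with other-lineage markers, with the plain ratio and with a floor of 50 CPM. Ly6c2 turned to -0.46 without members over 5% S100 and to -0.75 in low-S100 members, and Mgst1 to -0.12 with thinning before the rule, -0.16 without members over 5% S100 and -0.22 in low-S100 members. Without members over 5% S100, Cd63 turned to -0.01 and the median of the 8 complement genes measured there to -0.01. The cause was not tested. Of the 20 genes high against other classes, 20 were at least 4-fold above every class compared with 1 CPM added and 17 with cells thinned to 2000 UMIs. Young classical monocytes were not among the classes compared. Depth limits genes under 5 CPM, and low-S100 values rest on fewer cells.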
